A study of Mus musculus with 18 samples.

Results

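The genes described here encode the proteins of the cytosolic ribosome in mouse liver. They were taken from the deposited expression table by symbol, as all protein-coding genes named Rpl or Rps followed by a number, together with Rplp0, Rplp1, Rplp2, Rpsa and Fau. The ribosomal S6 kinases, pseudogenes and a binding partner of Rps19 with a similar symbol were left out. This gave 89 genes of 23521 in the table, 54 of the large subunit and 35 of the small subunit. The choice rested on symbol and gene type, but it was made with earlier results of these data known. For a gene with several rows, the row with the highest mean was kept.

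PolyA RNA of whole liver was sequenced in 18 libraries, 3 in each of 6 groups of wild-type C57BL/6J mice. The groups were HF+CR, HF+Ex and HF, and LF+CR, LF+Ex and LF, all treated from 5 weeks of age and sampled at 62 weeks. The labels give HF, LF, CR and Ex as abbreviations, read here as high-fat diet, low-fat diet, caloric restriction and exercise, and HF and LF alone are the groups with neither CR nor Ex. Sex is not given in the labels, nor whether every library is a separate animal, and each p-value therefore reflects only how far these libraries spread, which may be partly technical. Values are RPKM, reads scaled to transcript length and sequencing depth.

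A ribosome is built from a small subunit, which reads the messenger RNA, and a large subunit, which joins amino acids. Its proteins are needed in fixed proportions, and their genes, spread over many chromosomes, are among the most strongly transcribed of a liver cell. Their messenger RNAs typically begin with a C followed by a run of pyrimidines, the 5′ terminal oligopyrimidine (TOP) tract, through which the kinase complex mTORC1 and the RNA-binding protein LARP1 control their translation and stability. Translation itself is not seen in levels of polyA RNA.

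The start of these transcripts is the sequence that members are known to share, so windows from 10 bases before to 20 bases from the annotated start are shown for members on which the comparisons below turn and for Rps18 as a member with the tract. Capitals mark the longest run of C and T in each window, and the start is the 11th base. Sequences and positions are RefSeq entries on GRCm38.p6.
Fau, chr19:6057937-6057966, plus strand: gcccccaCTTCTTCCTCTTTCTTgactcca
Rps18, chr17:33955646-33955675, minus strand: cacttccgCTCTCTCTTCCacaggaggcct
Rps6, chr4:86857348-86857377, minus strand: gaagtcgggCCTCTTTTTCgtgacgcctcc
Rps24, chr14:24490668-24490697, plus strand: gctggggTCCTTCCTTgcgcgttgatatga
Rpl7a, chr2:26910797-26910826, plus strand: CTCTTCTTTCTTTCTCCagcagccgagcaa
Rpl22l1, chr3:28805498-28805527, plus strand: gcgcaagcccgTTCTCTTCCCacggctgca
Rpl22, chr4:152325716-152325745, plus strand: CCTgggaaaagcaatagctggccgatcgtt
Rpl24, chr16:55966265-55966294, plus strand: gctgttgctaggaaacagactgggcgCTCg

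In Fau, Rps18 and Rps6 the annotated start is a C within the tract. In Rps24 the tract spans the annotated start, which is a T. In Rpl7a the tract spans the start with a T there too, and in Rpl22l1 it begins at the second base of the transcript. The windows of Rpl22 and Rpl24 hold no run of C and T longer than 3 bases. Of 81 RefSeq promoter entries for 69 members, 16 (19.8%) had a C at the annotated start followed by at least 4 bases of C or T, against 2.51% of all 32851 entries. A run of at least 8 such bases lay in the window of 27 entries (33.3%), against 11.2% of all entries. The letters CCGGAAG, searched on both strands over the 250 bases before to 50 bases after the start, were present in 27 entries (33.3%), against 8.86% of all. A match describes letters only, and an annotated start can differ from the start used in liver.

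The ribosomal protein genes were among the most abundant transcripts of these livers. Of the 89 members, 72 had a mean of at least 100 RPKM over the 18 libraries, 41 of the large and 31 of the small subunit. Among the 10356 genes that reached 1 RPKM in at least 3 libraries, and so were tested, 6.68% had such a mean. The 82 members in that set had a median level of 284 RPKM, against 6.03 RPKM for all genes tested. The filter kept 50 large-subunit and 32 small-subunit members, and every comparison below is over these 82.

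The 6 members of highest mean level were Rpl41 at 1873 RPKM, Rps26 at 1390 RPKM, Rplp1 at 1073 RPKM, Rps12 at 934 RPKM, Rps15 at 773 RPKM and Rpl10 at 694 RPKM. Rpl41 is the smallest ribosomal protein, and Rplp1 belongs to the acidic stalk that recruits elongation factors. Its partners in the stalk were lower, with means of 365 RPKM for Rplp0 and 228 RPKM for Rplp2. Rpsa averaged 218 RPKM and Fau, whose product is a ubiquitin-like protein fused to a small-subunit protein, 402 RPKM. Rps27a, fused to ubiquitin in the same manner, averaged 186 RPKM. Rpl5 and Rpl11, which form a particle with 5S ribosomal RNA and can bind Mdm2, averaged 142 and 397 RPKM.

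**Figure D1:**
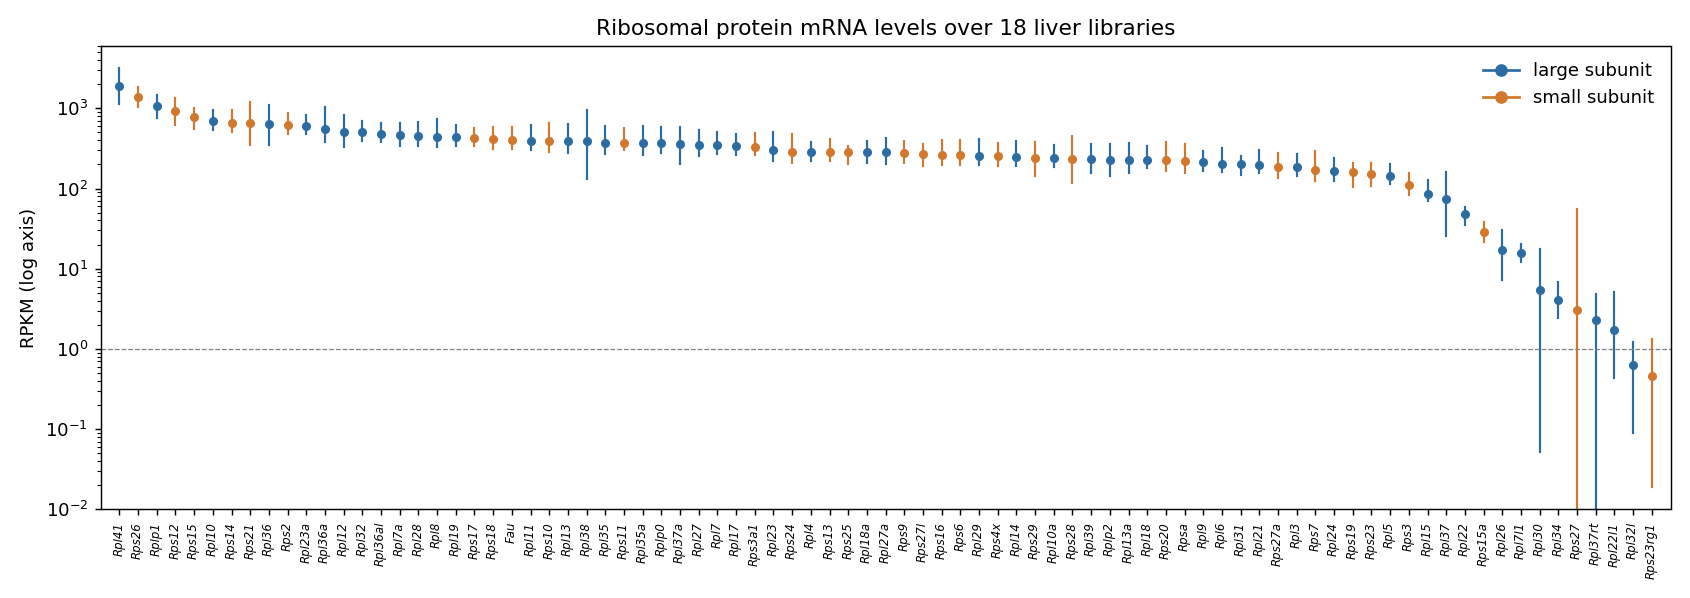
Level of each ribosomal protein gene as RPKM on a log axis. Points are means over 18 libraries, lines run from the lowest to the highest library, blue is the large and orange the small subunit, and the dashed line marks 1 RPKM; 83 genes are drawn, without the 4 listed at 0 in all libraries, and lines that reach 0 are cut at the axis. Most members lie between 100 and 1000 RPKM, and the long lines of Rps27 and Rpl30 at the low end reflect single libraries or values near 0.

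A few members lay far below the rest. Rpl10l and Rpl39l, known as testis-expressed paralogs, Rpl3l, known as a muscle paralog, and the retrogene Rps27rt were listed at 0 in all 18 libraries. Rpl32l and Rps23rg1 reached 1 RPKM in 2 libraries each. These 6 genes and Rps27 were the 7 members that were not tested. Rps27, a constitutive protein of the small subunit, was listed at 0 in 17 libraries and at 55.4 RPKM in HF+Ex 3, while its paralog Rps27l averaged 271 RPKM. A listed 0 for a gene that every cell uses can be a failed estimate and is not read as absence.

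Several core members tested were also low: Rpl34 had a mean of 4.03 RPKM, Rpl30 of 5.49 RPKM (10.2 RPKM with its 2 rows summed), Rpl26 of 17.2 RPKM and Rps15a of 28.4 RPKM. Most of these proteins are present once in every ribosome. Many members have processed pseudogenes or paralogs with near-identical sequence, and reads from them can be split or lost in counting. Of the 50-base windows of a member's transcript, a median of 49.3% also occurred in transcripts of other genes, over 87 members matched to GENCODE transcripts. The share was 98.65% for Rps27, 93.3% for Rpl9 and 92.1% for Rpl10, against 2.96% for Rps3 and 5.19% for Rpl22. The 8 core members under 100 RPKM had a median share of 30.8%, which is below the median of 52.4% for the 70 core members at 100 RPKM or more. The part of shared reads in each level was not tested.

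Paralogs differed in how close they came to their partner. Rpl36al averaged 482 RPKM beside 554 RPKM for Rpl36a, but it lay above Rpl36a in 4 of 18 libraries, all 3 of HF+CR and LF+Ex 2, and its level ran from 62.8% to 128% of that of Rpl36a. Rpl7l1 averaged 15.8 RPKM beside 346 RPKM for Rpl7. Rpl22l1 averaged 1.74 RPKM beside 48.4 RPKM for Rpl22.

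The members moved up and down together from library to library. The SD of a member's log2(RPKM + 1) over the 18 libraries had a median of 0.26, and of 0.12 once each library's median deviation of the 82 members was taken off. The SD became smaller for 78 of 82 members, but for only 2198 of the 10356 genes tested. The course taken off is the members' own in both cases, so these counts are not like for like. Members of both subunits moved together, and the figure of deviations shows whole columns of 1 colour. The 5 members that varied most around this common course were Rpl30, Rpl22l1, Rpl38, Rpl37rt and Rpl37, with SDs of 0.98, 0.70, 0.60, 0.56 and 0.54. Because members are not independent, a count of members that pass a test is not a count of separate events.

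**Figure D2:**
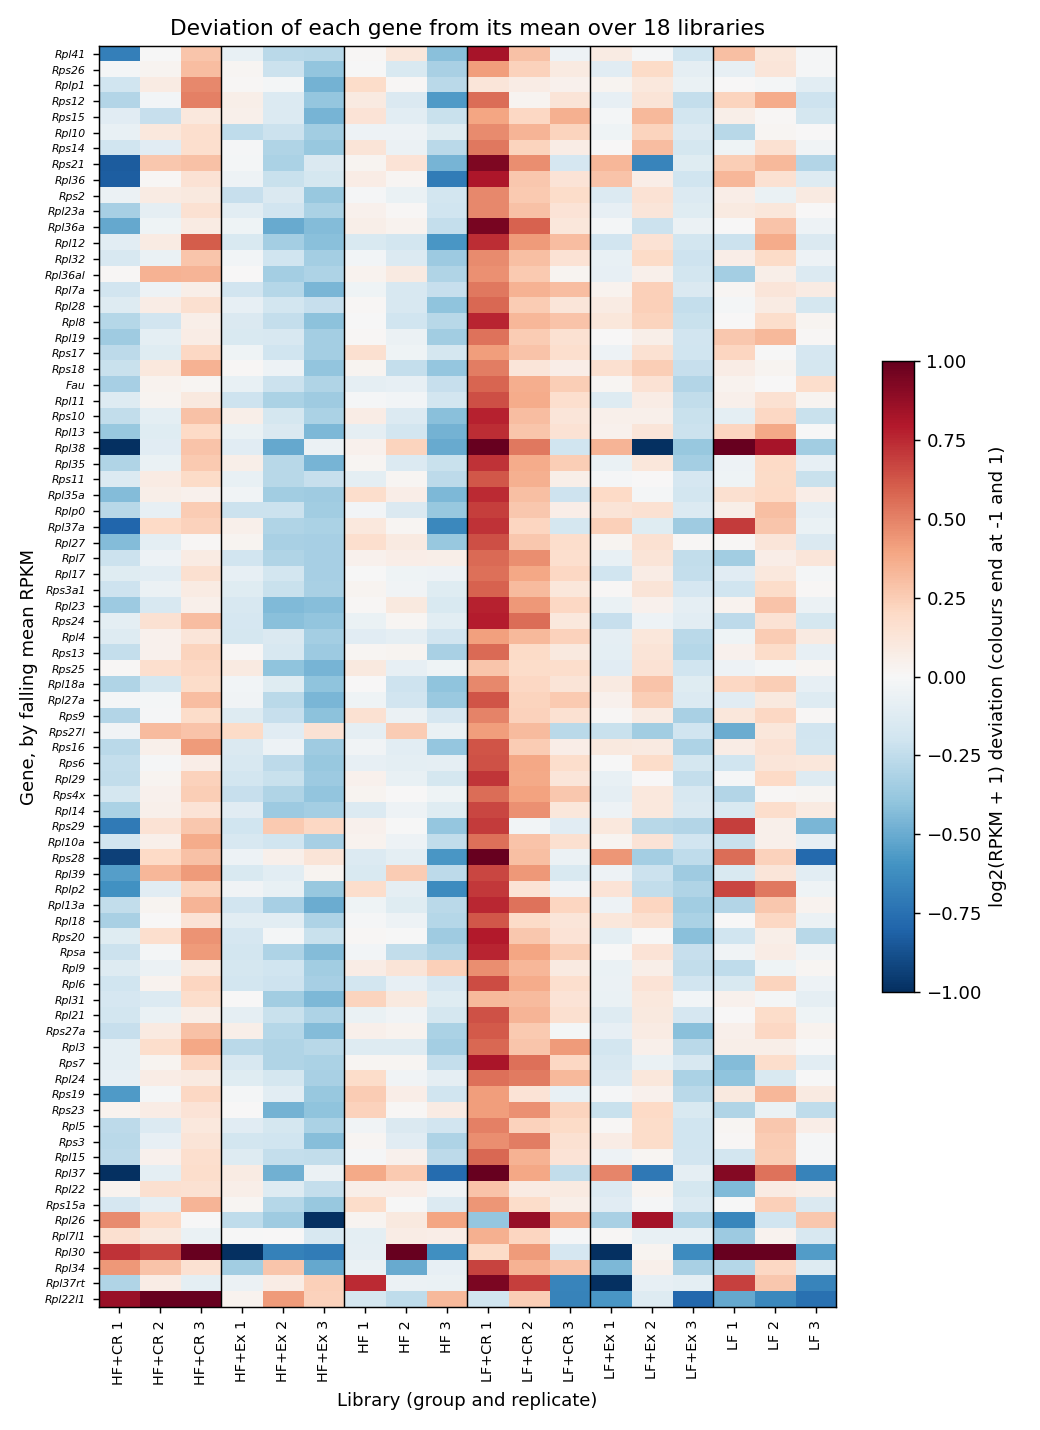
Deviation of log2(RPKM + 1) of 80 of the 82 tested members, in rows from the highest to the lowest mean, from its own mean over 18 libraries, in columns by group and replicate. Colours end at -1 and 1. LF+CR 1 and LF+CR 2 are red and LF+Ex 3 is blue for nearly all rows, and Rpl22l1 in the bottom row is red in all 3 HF+CR libraries. All genes tested were also low in LF+Ex 3, with a median deviation of -0.17, against 0.04 in LF+CR 1 and 0.06 in LF+CR 2.

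Members took 7.67%, 6.36% and 5.75% of the summed RPKM in LF+CR libraries, against 5.27%, 5.85% and 4.99% in LF libraries. In HF+CR libraries they took 4.47%, 5.19% and 6.32%, against 4.88%, 4.99% and 4.42% in HF libraries. In HF+Ex libraries the shares were 5.03%, 4.38% and 4.24%, and in LF+Ex libraries 5.05%, 5.33% and 4.81%. LF+CR 1 had the highest share and HF+Ex 3 the lowest. These shares have the summed RPKM as their base, and albumin, the major secreted protein of hepatocytes, was listed at 0 in 14 libraries and at 30395 to 33218 RPKM in the other 4, which were HF 1 and the 3 HF+Ex libraries.

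Median deviations do not depend on that sum. The median deviation of the 82 members from their own means, in log2(RPKM + 1), was 0.58, 0.30 and 0.14 in LF+CR libraries, against 0.00, 0.16 and -0.05 in LF libraries. It was -0.22, 0.03 and 0.20 in HF+CR libraries, against 0.01, -0.05 and -0.26 in HF libraries. It was -0.09, -0.22 and -0.35 in HF+Ex libraries and -0.05, 0.11 and -0.20 in LF+Ex libraries. The 3 LF+CR libraries and the 3 HF+CR libraries thus covered wide ranges within their own group, and LF+CR 3 lay under LF 2. The median deviation of all genes tested ran from -0.17 in LF+Ex 3 to 0.15 in LF 2, and was 0.04 in LF+CR 1.

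**Figure D3:**
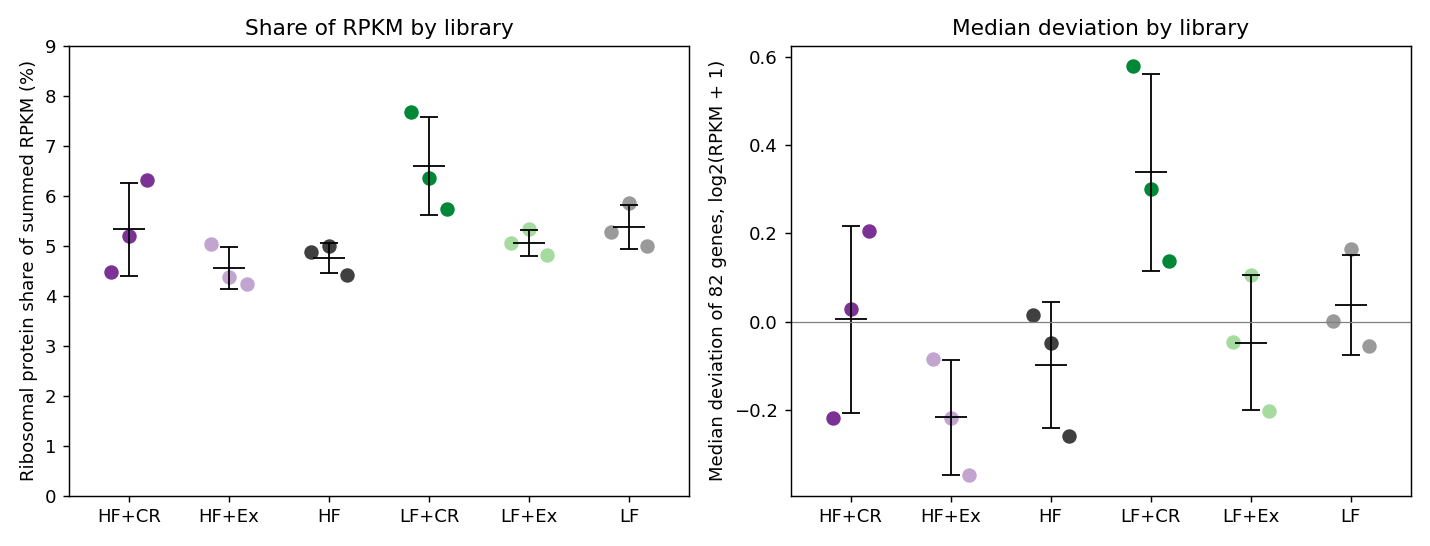
Share of the summed RPKM held by ribosomal protein genes, in percent, on the left and the median deviation of 82 members in log2(RPKM + 1) on the right, for each library by group. Bars are the mean and SD over 3 libraries. LF+CR has the highest mean share, 6.59 ± 0.983%, and overlaps HF+CR and LF in single libraries.

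Some libraries carried transcripts of other cell types. The 10 listed markers of pancreatic acinar cells, which secrete digestive enzymes, reached a sum of 1910 RPKM in LF+CR 1. HF+CR 1 had 284 RPKM and LF+Ex 1 had 29.4 RPKM of them, and the other libraries at most 3.71 RPKM, with 0 in 3 libraries. Of these markers Amy2a5 was at 0 in every library. In LF+CR 1 members lay above their own mean for 80 of 82 genes and in HF+CR 1 for 9. The count was 81 in LF+CR 2, with pancreatic markers at 0.332 RPKM, and 6 in each of HF+Ex 2 and HF+Ex 3, where these markers were at 0. The 8 bile duct markers had a sum of 174 RPKM in HF+CR 3 and of 155 RPKM in LF 2, against a median of 42.6 RPKM over 18 libraries, and in those libraries 79 and 72 members lay above their own mean. The members' median deviation was 0.20 in HF+CR 3 and 0.16 in LF 2, and that of all genes tested 0.09 in HF+CR 3 and 0.15 in LF 2. Over the 18 libraries lymphocyte markers summed to 0.829 to 8.89 RPKM, macrophage markers to 41.0 to 131 RPKM, stellate cell markers to 51.0 to 144 RPKM and erythroid markers to 345 to 1574 RPKM. Hepatocyte markers summed to 13327 to 47684 RPKM, and to 12406 to 22935 RPKM without albumin, which was listed at 0 in 14 libraries. Fewer cells of a type and less RNA per cell cannot be told apart in whole liver, and the part of these transcripts in the results was not tested.

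Levels were compared as log2(RPKM + 1) with limma in 1 model of all 6 groups, and a gene was called where its p-value, adjusted by Benjamini-Hochberg over the 10356 genes, was under 0.05. Differences below are on that log2 scale with their SE, levels are RPKM means ± SD over 3 libraries, and every adjusted p is from limma.

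LF+CR against LF asks what caloric restriction does on the low-fat diet. Of 82 members 78 had a positive difference, with a median of 0.33, against 0.00 for all genes tested, and 6 passed the test. The medians were alike for the subunits, 0.34 for the large and 0.31 for the small. These 6 members (7.32%) were called higher and 0 lower, while 3.01% of all genes tested were called higher and 3.49% lower. At an unadjusted p under 0.05, 41 of 82 members were higher and 0 lower, against 1161 and 1155 of the 10356 genes tested. In 30 members (36.6%) every LF+CR library lay above every LF library, against 11.6% of all genes tested, and in 0 members below, against 11.7%. Pancreatic markers summed to 0.332 to 1910 RPKM over the LF+CR libraries, against 0.300 to 2.41 RPKM over the LF libraries, and bile duct markers to 32.4 to 44.6 RPKM, against 20.2 to 155 RPKM. Summed lymphocyte markers were separate, at 0.829 to 1.31 RPKM over the LF+CR libraries, against 1.64 to 6.23 RPKM over the LF libraries. Single genes of that list overlapped, such as Ptprc, at 0.809 RPKM in LF+CR 1 and 0.433 RPKM in LF 1. Summed hepatocyte markers were also separate, at 16651 to 17216 RPKM over the LF+CR libraries, against 13327 to 16327 RPKM over the LF libraries. Single genes of this list went both ways. Ttr, Tat and Cps1 were higher in every LF+CR library than in every LF library, and Apob was lower. Apoa1, Serpina1c and Hnf4a overlapped, and albumin was listed at 0 in all of these libraries. The part of these markers in the result was not tested.

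Rpl24, a large-subunit protein that forms a bridge to the small subunit, had 240, 235 and 205 RPKM in LF+CR libraries, against 124, 147 and 163 RPKM in LF libraries. The 3 LF+CR libraries were the highest of all 18 for this gene, and 81.7% of its 50-base windows occur in transcripts of other genes, so its level is uncertain. The difference was 0.65 ± 0.13 (adjusted p = 0.00852), and the next 3 members called have roles in the small subunit.

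Rps23, which lies at the decoding centre, had 200, 206 and 175 RPKM in LF+CR libraries, against 121, 143 and 125 RPKM in LF libraries, a difference of 0.57 ± 0.14 (adjusted p = 0.0230). Rps7, needed for processing of the small-subunit RNA, had 297, 247 and 195 RPKM in LF+CR libraries, against 125, 191 and 156 RPKM in LF libraries, a difference of 0.65 ± 0.16 (adjusted p = 0.0280). Rps4x, encoded on the X chromosome, had 367, 329 and 300 RPKM in LF+CR libraries, against 203, 251 and 253 RPKM in LF libraries, a difference of 0.50 ± 0.12 (adjusted p = 0.0296). In these 3 genes the groups did not overlap.

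Rpl10, which joins the large subunit late in its assembly, had 951, 870 and 801 RPKM in LF+CR libraries, against 568, 696 and 688 RPKM in LF libraries, a difference of 0.43 ± 0.12 (adjusted p = 0.0398). Rps24 had 485, 415 and 302 RPKM in LF+CR libraries, against 233, 311 and 249 RPKM in LF libraries, a difference of 0.58 ± 0.16 (adjusted p = 0.0429). In Rps24 the groups overlapped, since LF 2 lay above LF+CR 3. All 6 called members have a start sequence in the table and none has a C at the annotated start followed by at least 4 pyrimidines.

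The other members were not called. The 3 largest negative differences were -0.66 ± 0.60 for Rpl30, -0.11 ± 0.26 for Rplp2 and -0.05 ± 0.30 for Rpl37a. Rpl30 had 4.92, 5.97 and 3.62 RPKM in LF+CR libraries, against 17.5, 10.4 and 2.53 RPKM in LF libraries, so its groups overlapped. Of the other genes of the stalk, Rplp0 differed by 0.25 ± 0.17 and Rplp1 by 0.12 ± 0.16. Rpsa differed by 0.47 ± 0.16 (adjusted p = 0.102), Fau by 0.32 ± 0.13 (adjusted p = 0.162) and Rps6, the substrate of the S6 kinases, by 0.39 ± 0.13 (adjusted p = 0.0974). Rpl3, Rpl5 and Rpl11 differed by 0.39, 0.19 and 0.31. The paralogs Rpl7l1, Rpl36al and Rps27l differed by 0.35, 0.38 and 0.34.

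The number of calls changed with single libraries. Without LF+CR 1, without LF+CR 2 or without LF 1 a single member was called, Rpl24, and without LF+CR 3 there were 10. With any 1 library left out the difference ran from 0.52 to 0.64 for Rps23 and from 0.39 to 0.57 for Rps4x. It ran from 0.33 to 0.49 for Rpl10, from 0.49 to 0.80 for Rps7 and from 0.54 to 0.74 for Rpl24. Ranges were 0.43 to 0.77 for Rps24 and 0.21 to 0.44 for the members' median. Without LF+CR 1 the median difference of the members was 0.21, and without all 3 libraries that held pancreatic transcripts (HF+CR 1, LF+CR 1 and LF+Ex 1) no member was called. Without LF 2 and HF+CR 3, the libraries high in bile duct markers, 10 members were called. When each library was shifted so that the members' median was equal in all, which takes off their shared difference by construction, 0 members were called.

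HF+CR against LF+CR compares the diets under caloric restriction and has the same LF+CR libraries as the comparison above. Differences were negative for 78 of 82 members, with a median of -0.37, against 0.00 for all genes tested. The test called 10 members lower (12.2%), 8 of the large and 2 of the small subunit, against 5.08% of all genes tested called lower. It called 1 member higher (1.22%), Rpl22l1, against 4.7% of all genes tested called higher. In 22 members (26.8%) every HF+CR library lay below every LF+CR library, against 15.7% of all genes tested, and in 2 members above, against 15.6%. Lymphocyte markers summed to 3.07 to 8.89 RPKM over the HF+CR libraries, against 0.829 to 1.31 RPKM over the LF+CR libraries, and macrophage markers to 65.9 to 80.4 RPKM, against 41.0 to 58.9 RPKM. Neither sum overlapped between the groups, but this did not hold for every gene of the lists. Of the macrophage markers, Clec4f, Marco and Timd4 overlapped, while Adgre1, Csf1r and Vsig4 did not. Of the lymphocyte markers, Cd2, Cd3e and Ptprc overlapped and the others did not. Hepatocyte markers summed to 21450 to 22935 RPKM over the HF+CR libraries, against 16651 to 17216 RPKM over the LF+CR libraries. Of these markers Apoa1 and Serpina1c were higher in every HF+CR library than in every LF+CR library, and Tat, Cps1 and Hnf4a lower. Ttr and Apob overlapped, and albumin was listed at 0 in all of these libraries. The part of these lists in the result was not tested.

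Rpl36a, on the X chromosome, had 376, 522 and 570 RPKM in HF+CR libraries, against 1039, 807 and 581 RPKM in LF+CR libraries, a difference of -0.71 ± 0.20 (adjusted p = 0.0380). Its highest HF+CR library and lowest LF+CR library were close together. Its paralog Rpl36al had 563 ± 72.5 RPKM in HF+CR, against 569 ± 83.9 RPKM in LF+CR, a difference of -0.01 ± 0.15. Of the 50-base windows of Rpl36a 85.5% occur in transcripts of other genes, and among the other members called lower the share was 84.6% for Rps6, 81.7% for Rpl24, 81.2% for Rpl7a and 78.7% for Rpl17, so the levels of these genes are uncertain.

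Rpl23, a large-subunit protein that can also bind Mdm2, had 232, 268 and 309 RPKM in HF+CR libraries, against 510, 404 and 344 RPKM in LF+CR libraries, a difference of -0.63 ± 0.15 (adjusted p = 0.0149). Rpl8, which lies near the site of peptide bond formation, had 358, 382 and 454 RPKM in HF+CR libraries, against 738, 549 and 532 RPKM in LF+CR libraries, a difference of -0.60 ± 0.15 (adjusted p = 0.0193). Only 7.86% of its 50-base windows occur in other transcripts. The groups of both genes were separate.

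Fau, with the tract at its start, had 314, 405 and 402 RPKM in HF+CR libraries, against 593, 511 and 470 RPKM in LF+CR libraries, a difference of -0.49 ± 0.13 (adjusted p = 0.0298). Rps6, with the tract as well, had 218, 255 and 269 RPKM in HF+CR libraries, against 400, 337 and 291 RPKM in LF+CR libraries, a difference of -0.46 ± 0.13 (adjusted p = 0.0407). They were the small-subunit members called. Of the 10 members called lower, 6 have a start sequence in the table. Of these 6, 2 have a C at the annotated start followed by at least 4 pyrimidines. In Rpl7a, also among the 6, the tract spans the start, which is a T.

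Rpl24 was lower too, at 154, 172 and 173 RPKM in HF+CR libraries, against 240, 235 and 205 RPKM in LF+CR libraries, a difference of -0.44 ± 0.13 (adjusted p = 0.0419). It was the only member called in this comparison and also in LF+CR against LF, and both use the same LF+CR libraries. The other members called lower were Rpl7a (-0.45 ± 0.11), Rpl21 (-0.44 ± 0.12), Rpl7 (-0.46 ± 0.14) and Rpl17 (-0.40 ± 0.12), with adjusted p from 0.0203 for Rpl7a to 0.0498 for Rpl7. In Rpl7a the levels were 443 ± 38.3 RPKM in HF+CR, against 606 ± 50 RPKM in LF+CR.

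Members not called included those with the largest negative differences. Rpl38, known for its part in patterning of the mouse axial skeleton, had 132, 319 and 420 RPKM in HF+CR libraries, against 942, 498 and 300 RPKM in LF+CR libraries, a difference of -1.0 ± 0.50 (adjusted p = 0.218). Its libraries spanned a wide range in both groups. Over the 18 libraries the 3 rows of Rpl38 summed to a mean of 609 RPKM, against 387 RPKM for the row kept. Rpl37 differed by -0.89 ± 0.50 (adjusted p = 0.272), with 54.5 ± 25.9 RPKM in HF+CR, against 101 ± 53.3 RPKM in LF+CR. On the positive side Rpl30 differed by 0.65 ± 0.60 and Rplp1 by 0.04 ± 0.16. Rpl5 and Rpl11 were just outside the threshold, with -0.41 ± 0.13 (adjusted p = 0.0539) and -0.39 ± 0.12 (adjusted p = 0.0513). Rplp0, Rplp2, Rpsa, Rpl3 and Rps27a differed by -0.38, -0.44, -0.40, -0.27 and -0.24, and Rps27l by 0.04.

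The number of lower calls also changed with single libraries. With any 1 library left out the difference ran from -0.51 to -0.39 for Rpl7a and for Rpl24. It ran from -0.70 to -0.45 for Rpl8 and from -0.55 to -0.31 for Rpl21. Ranges were -0.76 to -0.48 for Rpl23, -0.93 to -0.51 for Rpl36a and -0.47 to -0.24 for the members' median. Without HF+CR 1 or without LF+CR 1 a single member was called, Rpl22l1. The count was 3 without HF+CR 2, 4 without LF+CR 2, 20 without LF+CR 3 and 24 without HF+CR 3. It was 7 without any 1 of HF 2, HF+Ex 2, HF+Ex 3 or LF+Ex 1, libraries that enter only the shared spread. Without the 3 libraries with pancreatic transcripts 1 member was called and the median difference was -0.11, while without the 2 libraries high in bile duct markers 27 were called.

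**Figure D4:**
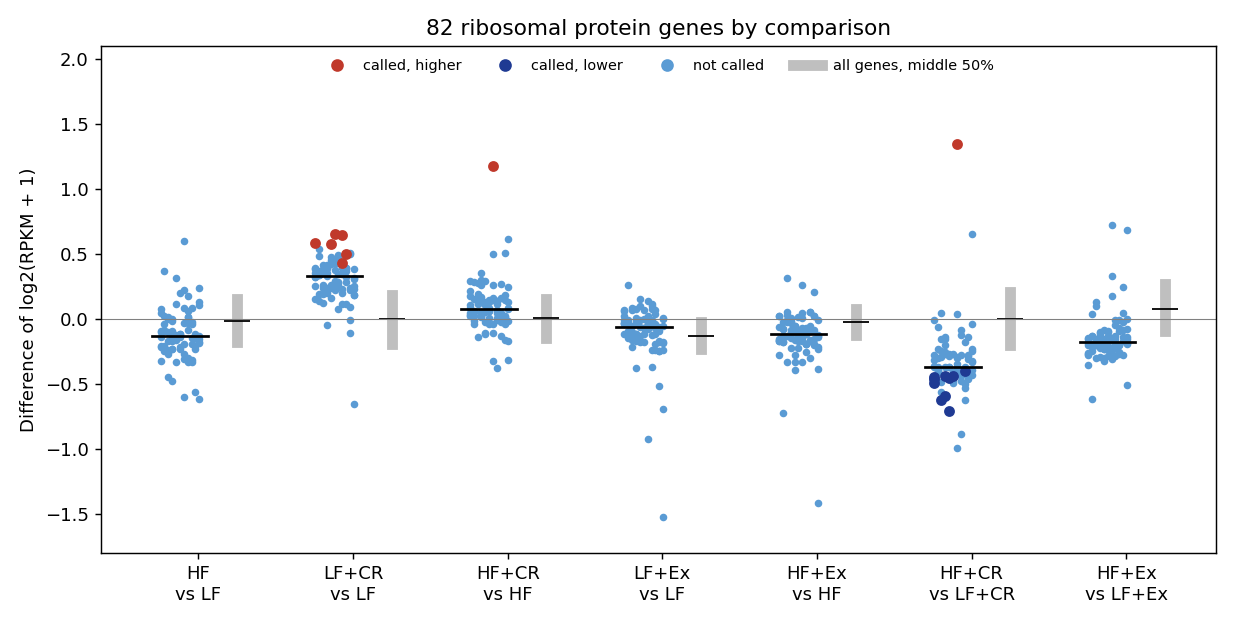
Difference in log2(RPKM + 1) of the 82 members in each of 7 comparisons, each named with its reference second. Points are members, red called higher, dark blue called lower and light blue not called; black lines are medians, and grey bars span the middle 50% of all genes tested. The members' median is 0.33 in LF+CR against LF and -0.37 in HF+CR against LF+CR. The lone red point above 1 in both HF+CR comparisons is Rpl22l1.

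Rpl22l1 went its own way. It is a paralog of Rpl22 that can take its place in the large subunit, and Rpl22 is known in mice to bind Rpl22l1 RNA and lower its level. Rpl22l1 had 3.49, 5.15 and 4.83 RPKM in HF+CR libraries, the 3 highest of the 18. It had 1.52, 2.30 and 1.88 RPKM in HF+Ex libraries, 1.18, 1.07 and 2.09 RPKM in HF libraries, and 1.15, 1.92 and 0.551 RPKM in LF+CR libraries. LF+Ex libraries had 0.648, 1.26 and 0.432 RPKM and LF libraries 0.723, 0.580 and 0.469 RPKM. All levels are low, so a fold change in RPKM + 1 understates that in RPKM.

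Set against LF+CR, HF+CR had a difference of Rpl22l1 of 1.35 ± 0.23 (adjusted p = 0.00216), and set against HF one of 1.18 ± 0.23 (adjusted p = 0.0216). The groups did not overlap in either comparison. It was the only member called higher in both, and the 2 comparisons have the HF+CR libraries in common. Relative to the common course of the members, its difference in HF+CR against LF+CR was 1.68 (adjusted p = 0.000508) and that in HF+Ex against LF+Ex 0.89 (adjusted p = 0.0299). Making the members' median equal takes off their median difference, negative in both comparisons. Both values are therefore raised by construction and are no separate support for a change. On that relative scale Rplp1 was the other member that passed in HF+CR against LF+CR, at 0.38 (adjusted p = 0.0497), and none of the 10 members called lower passed.

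On the scale as deposited the other contrasts of Rpl22l1 did not pass. It differed by 0.60 ± 0.23 in HF against LF (adjusted p = 0.207) with groups that did not overlap, by 0.72 ± 0.23 in HF+Ex against LF+Ex (adjusted p = 0.0776), by 0.43 in LF+CR against LF (adjusted p = 0.291) and by 0.14 ± 0.23 in LF+Ex against LF. The call in HF+CR against LF+CR held in all 29 alternatives, with adjusted p from 0.000508, with the members' median made equal, to 0.0385. The call in HF+CR against HF held in 22 of 29 and was lost without HF 1, HF 2 or HF+CR 2, without the libraries with pancreatic transcripts, with a pseudocount of 0.1 RPKM, with only those groups in the fit and with the members' median made equal. With a filter at a mean of 5 RPKM the gene was not tested.

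Rpl22 itself was not called in any comparison. It had 49.4, 54.0 and 53.5 RPKM in HF+CR libraries, against 58.9, 51.1 and 51.3 RPKM in LF+CR libraries and 50.3, 50.3 and 47.0 RPKM in HF libraries. It averaged 44.9 ± 4.83 RPKM in HF+Ex, 45.0 ± 3.50 RPKM in LF+Ex and 45.5 ± 8.93 RPKM in LF. Every LF+CR library lay above every LF library, by little, since LF 2 had 51.1 RPKM. Over the 7 comparisons its differences lay between -0.13 and 0.25, which does not show that its level was equal. Rpl22l1 was 8.54 ± 1.31% of the Rpl22 level in HF+CR, 4.31 ± 1.14% in HF+Ex, 2.97 ± 1.28% in HF, 2.26 ± 1.37% in LF+CR, 1.69 ± 0.796% in LF+Ex and 1.37 ± 0.598% in LF. These ratios are of RPKM, a level per length, and 57.3% of the 50-base windows of Rpl22l1 and 5.19% of those of Rpl22 occur in other transcripts.

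**Figure D5:**
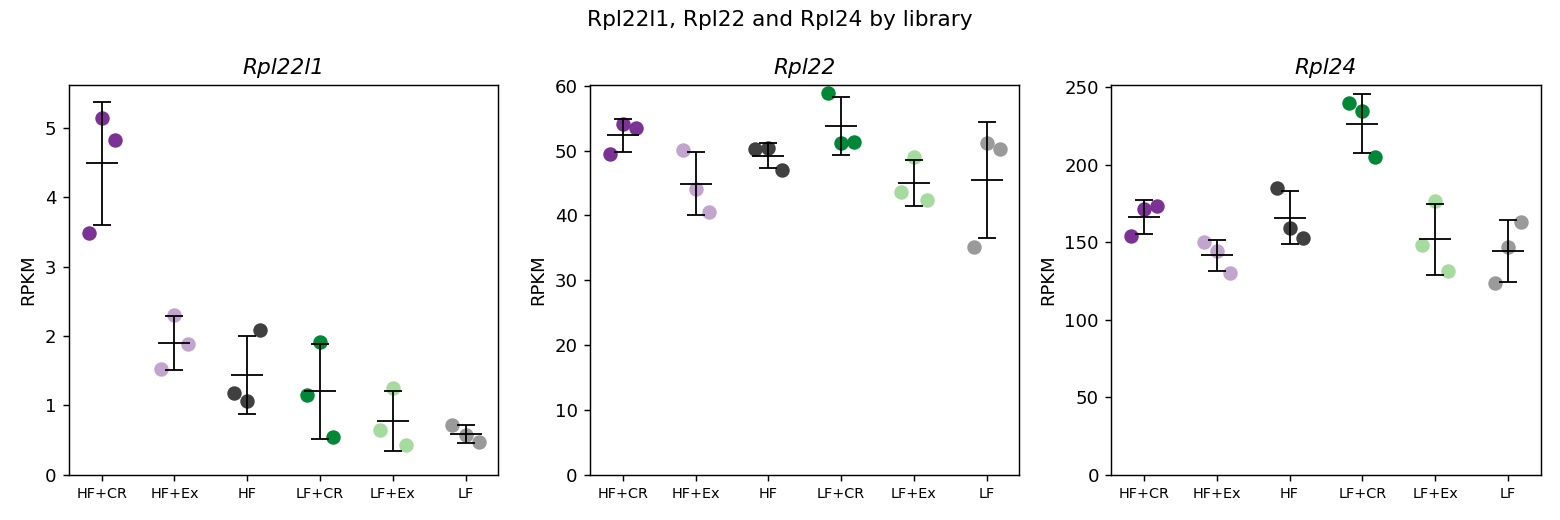
Level in RPKM of Rpl22l1, Rpl22 and Rpl24 in each library by group, with the mean and SD over 3 libraries and every axis starting at 0. All 3 HF+CR libraries are the highest for Rpl22l1, all 3 LF+CR libraries are the highest for Rpl24, and for Rpl22 the HF+CR, HF and LF+CR libraries share the range from 47.0 to 58.9 RPKM.

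HF+CR against HF asks what caloric restriction does on the high-fat diet. Of 82 differences 63 were positive with a median of 0.07, against 0.01 for all genes tested. Rpl22l1 was the 1 member called higher (1.22%) and 0 were called lower, against 0.628% and 0.772% of all genes tested. At an unadjusted p under 0.05, 4 of 82 members were higher and 0 lower, against 728 and 719 of the 10356 genes tested. In 6 members (7.32%) every HF+CR library lay above every HF library, against 10.7% of all genes tested, and in 0 below, against 8.29%. Among the 6 were Rpl12, Rpl22l1, Rpl27a, Rpl3 and Rpl34. The largest positive differences after Rpl22l1 were 0.61 ± 0.60 for Rpl30 and 0.51 ± 0.21 for Rpl34, and the largest negative ones -0.38 ± 0.50 for Rpl37, -0.32 ± 0.50 for Rpl38 and -0.32 ± 0.45 for the retrogene Rpl37rt, none called. Leaving out HF+CR 1 moved the median to 0.20 and leaving out HF+CR 3 to -0.03.

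HF against LF compares the diets without CR or Ex. No member was called in either direction, against 0.261% of all genes tested called higher and 0.145% lower. At an unadjusted p under 0.05, 2 of 82 members were higher and 3 lower, against 818 and 924 of the 10356 genes tested. Of 82 differences 63 were negative, with a median of -0.14, against -0.02 for all genes tested. In 9 members (11%) every HF library lay below every LF library, against 10.9% of all genes tested, and in 3 above (3.66%), against 7.97%. Among the 9 were Fau, Rpl11, Rpl13, Rpl3, Rpl4, Rpl5, Rpl7a and Rpl8, and the 3 were Rpl22l1, Rpl9 and Rps23. The largest negative differences were -0.62 ± 0.60 for Rpl30, -0.60 ± 0.50 for Rpl38 and -0.56 ± 0.26 for Rplp2, and the largest positive after Rpl22l1 were 0.37 ± 0.35 for Rpl26 and 0.31 ± 0.14 for Rps23. Rps23 had 176, 151 and 159 RPKM in HF libraries, against 121, 143 and 125 RPKM in LF libraries.

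HF+Ex against LF+Ex compares the diets under exercise. No member was called, while 4.13% of all genes tested were called higher and 1.01% lower. At an unadjusted p under 0.05, 1 of 82 members was higher and 2 lower, against 1738 and 563 of the 10356 genes tested. Differences were negative for 73 of 82 members, with a median of -0.18, against 0.08 for all genes tested. In 7 members (8.54%) every HF+Ex library lay below every LF+Ex library, against 6.67% of all genes tested, and in 3 above (3.66%), against 24.2%. The smallest adjusted p among members were those of Rpl22l1 and of Rpl7a, which had 403, 376 and 335 RPKM in HF+Ex libraries, against 472, 544 and 417 RPKM in LF+Ex libraries, a difference of -0.36 ± 0.11 (adjusted p = 0.0780). The other large differences were -0.62 ± 0.35 for Rpl26, -0.51 ± 0.60 for Rpl30, 0.68 ± 0.45 for Rpl37rt and 0.33 ± 0.18 for Rps27l. Without LF+Ex 3 there was 1 call.

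The comparisons of exercise within a diet gave no call for any gene of the table. In LF+Ex against LF, 0 members and 0% of all genes tested were called, and at an unadjusted p under 0.05, 0 members were higher and 1 lower. The median difference was -0.07, against -0.13 for all genes tested, and it was 0.10 with median-of-ratios scaling, so its direction depended on the scaling. Rps19 was the 1 member (1.22%) whose LF+Ex libraries all lay below the LF libraries, against 11.4% of all genes tested, and no member lay above, against 0.83%. The largest differences were -1.53 ± 0.60 for Rpl30, -0.93 ± 0.50 for Rpl38, -0.70 ± 0.45 for Rpl37rt, 0.26 ± 0.35 for Rpl26 and 0.15 ± 0.14 for Rps23.

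In HF+Ex against HF, 0 members and 0% of all genes tested were called. At an unadjusted p under 0.05, 0 of 82 members were higher and 7 lower, against 98 and 279 of the 10356 genes tested. The median was -0.12, against -0.02 for all genes tested, with 67 of 82 differences negative. In 15 members (18.3%) every HF+Ex library lay below every HF library, against 8.06% of all genes tested, and in Rps28 alone above, against 2.96%. Rpl30 had 0.0512, 2.24 and 2.19 RPKM in HF+Ex libraries, against 3.88, 11.5 and 2.39 RPKM in HF libraries, a difference of -1.41 ± 0.60. Rpl26 differed by -0.72 ± 0.35 and Rps23 by -0.40 ± 0.14. On the positive side Rps28 differed by 0.32 ± 0.37, Rpl22l1 by 0.26 ± 0.23 and Rps29 by 0.20 ± 0.30.

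Whether the CR difference depended on the diet was tested as an interaction, the CR difference on HF minus that on LF. No member was called, against 0.579% of all genes tested called higher and 0.444% lower. At an unadjusted p under 0.05, 1 of 82 members was higher and 8 lower, against 620 and 600 of the 10356 genes tested. The smallest adjusted p among members was that of Rpl24, 0.132 in limma, with a difference of -0.64 ± 0.18. Rps23 followed at -0.60 ± 0.19 (adjusted p = 0.192), and Rpl37 differed by -0.58 ± 0.70. Of 82 values 72 were negative and 10 positive, and the 3 largest positive ones were 1.27 ± 0.85 for Rpl30, 0.75 ± 0.32 for Rpl22l1 (adjusted p = 0.377) and 0.16 ± 0.32 for Rps12. The members' median was -0.23, and 0.02 without the libraries with pancreatic transcripts. The CR difference of members on LF was therefore not shown to differ from that on HF.

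The interaction of Ex with diet gave 0 calls among members and in the whole table (0%), with 0 members higher and 2 lower at an unadjusted p under 0.05. The median was -0.04, against 0.11 for all genes tested. The largest values were -0.99 ± 0.49 for Rpl26, -0.55 ± 0.19 for Rps23, -0.39 ± 0.17 for Rpl9, 0.78 ± 0.71 for Rpl38, 0.57 ± 0.64 for Rpl37rt and 0.54 ± 0.37 for Rplp2. Among members the smallest adjusted p was 0.818.

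Other genes of translation were counted from lists of textbook members. Of 24 elongation factors and other messengers with TOP tracts, 6 (25%) were lower in HF+CR than in LF+CR and 0 higher, with a median of -0.24, against 5.08% and 4.7% of all genes tested. Eef1a1, which brings transfer RNA to the ribosome, had 2949 ± 201 RPKM in HF+CR, against 3930 ± 96.3 RPKM in LF+CR, a difference of -0.42 ± 0.09 (adjusted p = 0.0101). Eef2, which moves the ribosome along, had 504 ± 27.4 RPKM in HF+CR, against 749 ± 88.8 RPKM in LF+CR, a difference of -0.57 ± 0.12 (adjusted p = 0.0101). The other 4 were Eif3f (-0.65), Eif3h (-0.42), Naca (-0.46) and Ybx1 (-0.54). Eif3f was also lower in HF+Ex than in LF+Ex, at -0.56 (adjusted p = 0.0257). It was the only 1 of the 24 called there (4.17%), against 1.01% of all genes tested called lower. In LF+CR against LF none of the 24 was called and their median was 0.11. There Rack1, a protein bound to the small subunit, differed by 0.15 and Tpt1 by 0.05. In HF+CR against LF+CR Rack1 differed by -0.43 (adjusted p = 0.112) and Tpt1 by -0.14.

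The counts of the next lists stand beside 3.01% of all genes tested called higher in LF+CR against LF and 5.08% called lower in HF+CR against LF+CR. Of 67 ribosome biogenesis factors tested, Nop10 and Utp4 (2.99%) were higher in LF+CR than in LF and Sbds (1.49%) was lower in HF+CR than in LF+CR, with medians of 0.05 and -0.07. Of 29 initiation factors, Eif1b (3.45%) was higher in LF+CR than in LF, and Eif2b1 and Eif4e2 (6.9%) were lower in HF+CR than in LF+CR. Of 78 mitochondrial ribosomal proteins, which build the separate ribosome of mitochondria, 5 (6.41%) were higher in LF+CR than in LF (Mrpl23, Mrpl48, Mrps31, Mrps33 and Mrps36), with a median of 0.13. In HF+CR against LF+CR Mrps2 was higher and Mrpl2 lower (1.28% each), against 4.7% and 5.08% of all genes tested. Mrpl23 was also higher in HF than in LF (1.28%), against 0.261% of all genes tested. In the CR by diet interaction Mrpl23 (-0.81, adjusted p = 0.0151) and Mrps36 (-0.75, adjusted p = 0.0454) were called lower (2.56%), against 0.444%.

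Of 35 regulators of mTORC1 and TOP messengers, 1 (2.86%) was called lower in LF+CR against LF, against 3.49% of all genes tested. In HF+CR against LF+CR 1 (2.86%) was called higher, against 4.7%. In HF against LF 1 (2.86%) was lower, against 0.145%, and in the CR by diet interaction 1 (2.86%) higher, against 0.579%. Rptor, a subunit of mTORC1, had 6.10 ± 0.28 RPKM in LF+CR and 9.0 ± 1.44 RPKM in LF, a difference of -0.48 ± 0.12 (adjusted p = 0.0238). Pdcd4, an inhibitor of translation initiation, had 37.0 ± 4.73 RPKM in HF+CR, against 17.9 ± 3.07 RPKM in LF+CR, a difference of 1.01 ± 0.18 (adjusted p = 0.00297), and it was called higher in the CR by diet interaction, at 1.35 (adjusted p = 0.0175). Eif4ebp2, which holds back the cap-binding protein, had 40.5 ± 3.87 RPKM in HF and 69.4 ± 15.1 RPKM in LF, a difference of -0.75 ± 0.15 (adjusted p = 0.0484). Mtor, Larp1, Eif4ebp1 and Myc were not called in LF+CR against LF, with differences of -0.47, -0.14, -0.12 and 0.17, or in HF+CR against LF+CR, with 0.15, -0.04, 0.09 and 0.48.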

How the data were processed

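Expression was deposited as RPKM for each RefSeq transcript, made by the authors with TopHat 1.4.1, Cufflinks 1.3.0 and the mm10 genome per the submitters' processing notes; the annotation version is not given in the sources used here. Per the labels' protocols, frozen liver was extracted with Trizol, 18 polyA RNA libraries were prepared, and groups and replicate numbers come from the titles. No counts were used, so no counting interval is given. The 30582 rows were named through RefSeq (30003) or GENCODE (180), 399 stayed unnamed, and of 23521 genes 4221 had more than 1 row, of which the row with the highest mean was kept. Reads shared by paralogs and pseudogenes can shift a member's level, and the rule of 1 row per gene leaves out other isoforms.

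Genes reaching 1 RPKM in 3 or more libraries (10356) were fitted as log2(RPKM + 1) in R 4.3.3 with limma 3.58.1, with 6 group means, an intensity trend and 12 residual degrees of freedom, two-sided, with Benjamini-Hochberg adjustment over all of them. The model was checked on simulated data. RPKM totals ran from 512495 to 589042 per library, with 9069 to 9997 genes at 1 RPKM or more. The 50-base windows were compared with GENCODE transcripts and promoters with RefSeq entries on GRCm38.p6.

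The members, lists and tests were chosen with earlier results of these data known, and 2 scalings, to equal RPKM sums and to an equal members' median, were added after seeing the data. Genes named are, per comparison, the called members and the 3 largest differences in each direction, the members of highest, lowest and most variable level, and a fixed list of paralogs, stalk proteins and regulators. Alternatives were the pseudocount, the filter, summed rows, median-of-ratios and quantile scaling, the groups in the fit, a replicate block, each library left out, and the libraries high in pancreatic or bile duct markers left out together. Results for some genes are not reported here.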

Additional observations from a re-analysis of the deposited data

How the results depend on the processing

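No called difference of a member changed sign under any alternative. The median over members changed sign in HF+CR against HF without HF+CR 3 (-0.03), in the CR by diet interaction without the libraries with pancreatic transcripts (0.02) and in LF+Ex against LF with median-of-ratios scaling (0.10) or without LF 2 (0.01) or LF+Ex 3 (0.01). In the Ex by diet interaction it ran from -0.13 to 0.03 with 1 library left out. Shifting to an equal members' median sets these medians near 0 by construction. With only the groups of the comparison in the fit, 0 members were called in LF+CR against LF, 0 in HF+CR against HF and 1 in HF+CR against LF+CR. Leaving out HF+CR 1, LF+CR 1 and LF+Ex 1, the counts were 0, 0 and 1, and without LF 2 and HF+CR 3 they were 10 in LF+CR against LF and 27 in HF+CR against LF+CR. Shifting each library to an equal members' median gave 0 in LF+CR against LF, 0 in HF+CR against HF, 2 in HF+CR against LF+CR (Rpl22l1 and Rplp1, both higher, with the 10 lower calls lost) and 1 in HF+Ex against LF+Ex (Rpl22l1, higher). In HF+CR against HF the pseudocount of 0.1 RPKM and the filter at a mean of 5 RPKM gave 0. Quantile normalization gave 7 in HF+CR against LF+CR, and median-of-ratios scaling gave 2 in HF+Ex against LF+Ex. With 1 library left out the counts ran from 1 to 10 in LF+CR against LF, from 0 to 1 in HF+CR against HF, from 1 to 24 in HF+CR against LF+CR and from 0 to 1 in HF+Ex against LF+Ex. The cause of these changes was not tested, except that fewer libraries leave fewer degrees of freedom.

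Deviations from group means were correlated over 45 pairs of same-numbered libraries of different groups. Their r ran from -0.49 to 0.316 with a median of 0.00431, and was over 0.1 in 10 pairs. For 6 of 18 libraries the best correlation was with their own number. With group means of 3 libraries these values neither show nor exclude a pairing by number. The 3 libraries with pancreatic transcripts, LF+CR 1, HF+CR 1 and LF+Ex 1, all have the number 1. With a replicate block 5 members were called in LF+CR against LF, 1 in HF+CR against HF, 8 in HF+CR against LF+CR and 0 in the other comparisons. Of the calls of single members, Rpl22l1 in HF+CR against LF+CR held in 29 of 29 alternatives, Rpl24 in LF+CR against LF in 27 of 30 and Rpl7 and Rpl17 in HF+CR against LF+CR in 12 of 30 each. Levels under about 1 RPKM and exact values of 0 are the least certain.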
